A study of Mus musculus with 8 samples.

Results

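Parp9, Dtx3l, Parp14, Parp10 and Parp12 are 5 genes of ADP-ribosylation that respond to interferon. These genes were measured in sorted mouse intestinal stem cells labelled Irf2_AhcKO, for Ah-Cre-driven deletion of Irf2, or control. They were taken as the array probes whose RefSeq accession maps to one of these symbols, which gave 6 probes for 5 of the 21368 gene symbols on the array. The genes were chosen by their log2 signals on Irf2_AhcKO against control arrays, so that difference is described below without a test. The Irf2_AhcKO group held 4 samples with Irf2fl/fl, the AhCre transgene and the Lgr5-EGFP-Ires-CreERT2 allele. The control group held 4 samples with Irf2fl/fl and the Lgr5-EGFP-Ires-CreERT2 allele, labelled without AhCre. Both groups received β-naphthoflavone on 5 consecutive days and were sampled 1 month later as Lgr5-high cells. β-naphthoflavone switches on Ah-Cre, whose promoter comes from a xenobiotic-inducible gene and is not restricted to stem cells. The floxed Irf2 alleles, the reporter with its CreERT2 and the β-naphthoflavone treatment were thus shared by all 8 samples. Inside the scanner files, control replicates 3 and 4 bear names with Ah-Cre, against their labels, so whether these 2 carried it is not settled. Both lay on slide 2, and values from slide 1 alone do not use them. The labels state no age. How the design text's 4 mice and its 2 biological replicates relate to the 4 arrays of a group is unclear, so errors measure the spread between these samples. IRF2, one of the interferon regulatory factors, can repress genes that interferon induces.

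PARP enzymes transfer ADP-ribose from NAD+ onto proteins, as chains or as single units. The PARPs among the members belong to the branch linked to single units and to interferon. PARP9 carries macrodomains that bind ADP-ribose and forms a complex with DTX3L, an E3 ubiquitin ligase of the Deltex family, which acts in interferon responses and at DNA breaks. PARP14, a large macrodomain enzyme, is known as a STAT6 coactivator in mouse lymphocytes. PARP10 adds single ADP-ribose units and PARP12 is a zinc-finger enzyme with antiviral activity. In human cells the PARP9 and DTX3L genes are known to be read head to head from a shared, interferon gamma-responsive promoter region. In the mouse gene table Parp14, Dtx3l and Parp9 follow each other on chromosome 16 as adjacent protein-coding genes, and the annotated spans of Dtx3l and Parp9 overlap.

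Levels are the log2 of the background-subtracted Cy3 signal minus the array's own 75th percentile, so a level of 0 means a signal equal to that percentile. Such levels compare arrays for 1 probe, not 1 probe with another. Between 61.4% and 69.8% of the spots on an array were well above background and none was saturated. All 6 member probes were well above background on all 8 arrays, so each of the 5 members passed the filter on dim probes. The 8 arrays lay on 2 slides, each with 2 Irf2_AhcKO and 2 control arrays. Irf2 itself, read by 1 probe, stood at 1.12, 1.1, 0.70 and 0.73 on Irf2_AhcKO replicates 1 to 4, against 0.99, 0.55, 0.37 and 0.64 on control replicates 1 to 4. The groups overlapped and Irf2 was not lower in Irf2_AhcKO (log2 difference 0.27, SE 0.12, limma adjusted p = 0.429). Whether this probe lies inside or outside the floxed exons is unknown, and it may not read the deletion at all. Directions below are therefore between the arrays labelled Irf2_AhcKO and those labelled control. The stem cell marker Lgr5 was well above background on all arrays, between 2.34 and 3.34 on Irf2_AhcKO arrays and between 2.97 and 3.46 on control arrays. Of the 7 stem cell markers measured, 1 had a positive difference, with a median of -0.11, and none passed limma's threshold.

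Parp9 and Dtx3l were higher and Parp14 and Parp12 lower on the Irf2_AhcKO arrays, while Parp10 overlapped between the groups. Parp9 was 1.78-fold and Dtx3l 1.76-fold the control level, and the levels of Parp14 and Parp12 were 0.461 and 0.678 of it. The adjacent genes Dtx3l and Parp14 thus lay on opposite sides of their control levels. None of the 5 members passed limma's threshold of adjusted p below 0.05 over all features, which 0.0984% of 25398 features passed (25 features, 0.0551% higher and 0.0433% lower). When the model held replicate number as a block, 0 features passed (limma). An unadjusted p below 0.05 was reached by 3293 features in that fit and by 2979 with the slide term (limma). Groups did not overlap in 2 members that were higher and 2 that were lower, where 1.74% and 2.11% of all features did so. Since this contrast chose the members, nothing is read from these counts.

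**Figure D1:**
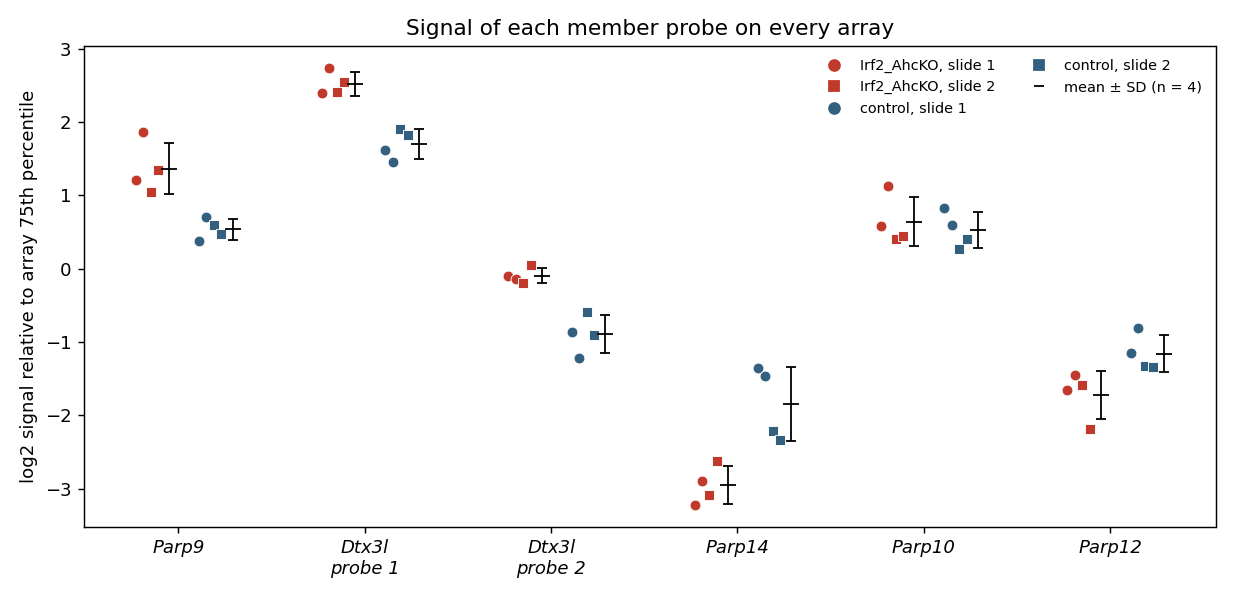
Each point is the log2 signal of 1 member probe on 1 array relative to the array's 75th percentile (vertical axis), with Irf2_AhcKO arrays left of control arrays, circles for slide 1, squares for slide 2, and bars for mean ± SD (n = 4). The 4 Irf2_AhcKO points lie above all control points for Parp9 and both Dtx3l probes, below them for Parp14 and Parp12, and among them for Parp10. Dtx3l probe 1 is the brighter of its 2 probes.

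Parp9, the macrodomain partner of the pair, had levels of 1.21, 1.86, 1.05 and 1.34 on Irf2_AhcKO replicates 1 to 4, against 0.38, 0.70, 0.60 and 0.47 on control replicates 1 to 4. The lowest Irf2_AhcKO array lay 0.35 above the highest control array, and Irf2_AhcKO replicate 2 was the highest of all. In processed signal units these were 466 to 822 in Irf2_AhcKO and 290 to 371 in controls. The mean was 1.36 ± 0.35 in Irf2_AhcKO and 0.54 ± 0.14 in controls (SD, n = 4 each), a log2 difference of 0.83 (SE 0.17). The difference was 1.00 on slide 1 and 0.66 on slide 2. Without Irf2_AhcKO replicate 2 the difference of Parp9 was 0.67.

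Dtx3l, the ubiquitin ligase of the pair, was read by 2 probes that gave nearly the same difference. The brighter probe had levels of 2.39, 2.74, 2.41 and 2.54 on Irf2_AhcKO replicates 1 to 4, against 1.62, 1.46, 1.91 and 1.82 on control replicates 1 to 4. Here too the groups were apart, by 0.49, and Irf2_AhcKO replicate 2 was the highest. Its mean was 2.52 ± 0.16 in Irf2_AhcKO and 1.70 ± 0.20 in controls (SD, n = 4 each), a log2 difference of 0.82 (SE 0.13), with 1.03 on slide 1 and 0.61 on slide 2. The dimmer probe had -0.10, -0.14, -0.19 and 0.05 on Irf2_AhcKO arrays, against -0.87, -1.22, -0.59 and -0.90 on control arrays. That probe differed by 0.80 and its groups were 0.40 apart. The 2 probes share their samples and are no separate observations of the groups.

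Promoter windows of 250 bases before the annotated start were held for 2 of the 5 members, Dtx3l and Parp12, in the RefSeq table of build GRCm38.p6. Both windows held are shown, and that of Dtx3l lies within the annotated span of Parp9. Capitals mark GAAA, the core of interferon response elements, or its reverse complement TTTC.
Dtx3l, minus strand, chr16:35939028-35939277: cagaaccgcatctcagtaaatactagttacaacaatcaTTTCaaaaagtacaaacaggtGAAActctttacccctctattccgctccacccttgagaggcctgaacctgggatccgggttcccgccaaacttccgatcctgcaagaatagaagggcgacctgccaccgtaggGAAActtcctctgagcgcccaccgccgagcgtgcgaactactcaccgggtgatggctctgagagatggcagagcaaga
Parp12, minus strand, chr6:39118350-39118599: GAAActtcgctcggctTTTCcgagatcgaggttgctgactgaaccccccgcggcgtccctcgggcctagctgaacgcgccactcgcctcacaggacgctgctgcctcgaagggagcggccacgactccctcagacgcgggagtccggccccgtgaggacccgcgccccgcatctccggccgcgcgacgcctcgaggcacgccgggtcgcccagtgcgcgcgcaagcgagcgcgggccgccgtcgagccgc
The Dtx3l window held 3 such cores, beginning 212, 191 and 78 bases before the start. The Parp12 window held 2, beginning 250 and 234 bases before it. A GAAA core on either strand occurred in 86.4% of the 32841 windows of this length in the table, so its presence sets neither gene apart. Neither window held the paired core of an interferon-stimulated response element, GAAA then any 2 bases then GAAA, on either strand, and 2.98% of all windows did. Nor did either hold the palindromic STAT site TTCNNNGAA, which 7.02% of all windows held. These letters being absent from 250 bases says nothing about sites elsewhere. The Dtx3l window was 52.8% and the Parp12 window 73.6% G or C.

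Parp14, the neighbour of Dtx3l, lay on the other side of its control level. Its levels were -3.22, -2.89, -3.09 and -2.62 on Irf2_AhcKO replicates 1 to 4, against -1.35, -1.47, -2.22 and -2.33 on control replicates 1 to 4. The groups were 0.29 apart, and the controls formed a brighter pair on slide 1 and a dimmer pair on slide 2. The mean was -2.96 ± 0.26 in Irf2_AhcKO and -1.84 ± 0.51 in controls (SD, n = 4 each), a log2 difference of -1.12 (SE 0.24). On slide 1 the difference was -1.65 and on slide 2 it was -0.58. The probe was dim, with a processed signal of 22.7 to 36.9 in Irf2_AhcKO and 46.4 to 88.0 in controls. The spot was 1.74 to 2.17 times its local background in Irf2_AhcKO and 2.15 to 4.64 times in controls. With normexp background correction, whose offset of 50 draws dim signals together, the difference of Parp14 was -0.47.

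Parp12, the zinc-finger enzyme, had levels of -1.66, -1.45, -1.58 and -2.19 on Irf2_AhcKO replicates 1 to 4, against -1.15, -0.81, -1.33 and -1.34 on control replicates 1 to 4. The groups were apart by 0.11 only, and Irf2_AhcKO replicate 4 was the lowest. Its mean was -1.72 ± 0.33 in Irf2_AhcKO and -1.16 ± 0.25 in controls (SD, n = 4 each), a log2 difference of -0.56 (SE 0.15). The slides gave nearly the same difference, -0.57 on slide 1 and -0.55 on slide 2. With normexp the difference of Parp12 was -0.33.

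Parp10, whose enzyme adds single ADP-ribose units, had levels of 0.58, 1.13, 0.40 and 0.45 on Irf2_AhcKO replicates 1 to 4. Control replicates 1 to 4 had 0.83, 0.60, 0.27 and 0.41. The groups overlapped, and Irf2_AhcKO replicate 2 was again the highest array. The mean was 0.64 ± 0.33 in Irf2_AhcKO and 0.53 ± 0.25 in controls (SD, n = 4 each), a log2 difference of 0.12 (SE 0.13). Without Irf2_AhcKO replicate 2 the difference of Parp10 was 0.00. Of the 5 members it was the only one with overlapping groups.

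The neighbours were then set against one another within each array, after each gene was centred on the mean of its slide. Dtx3l and Parp9 kept together: Dtx3l minus Parp9 was 0.17, -0.13, 0.05 and -0.11 on Irf2_AhcKO replicates 1 to 4, against 0.22, -0.26, 0.00 and 0.05 on control replicates 1 to 4. The log2 differences of the pair between groups differed by -0.01 (SE 0.13), within the spread between arrays. Parp14 minus Parp9 was -1.16, -1.48, -0.71 and -0.53 on the Irf2_AhcKO arrays, against 1.55, 1.1, 0.61 and 0.64 on the control arrays. No array of either group had the sign of the other, and slide 1 was wider than slide 2. Centring on the slide mean makes the group means mirror each other, so the split in sign adds little to the opposite differences above. Between groups Parp14 minus Parp9 differed by -1.94 (SE 0.34), a change of 3.85-fold in their ratio, with -2.64 on slide 1 and -1.25 on slide 2. Parp14 minus Dtx3l differed by -1.93 (SE 0.34), with -2.68 on slide 1 and -1.19 on slide 2. With normexp these gaps were -1.22 and -1.27, so the opposite course of Parp14 was smaller in size but kept its sign. These values rest on the contrast that chose the genes and are a description.

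**Figure D2:**
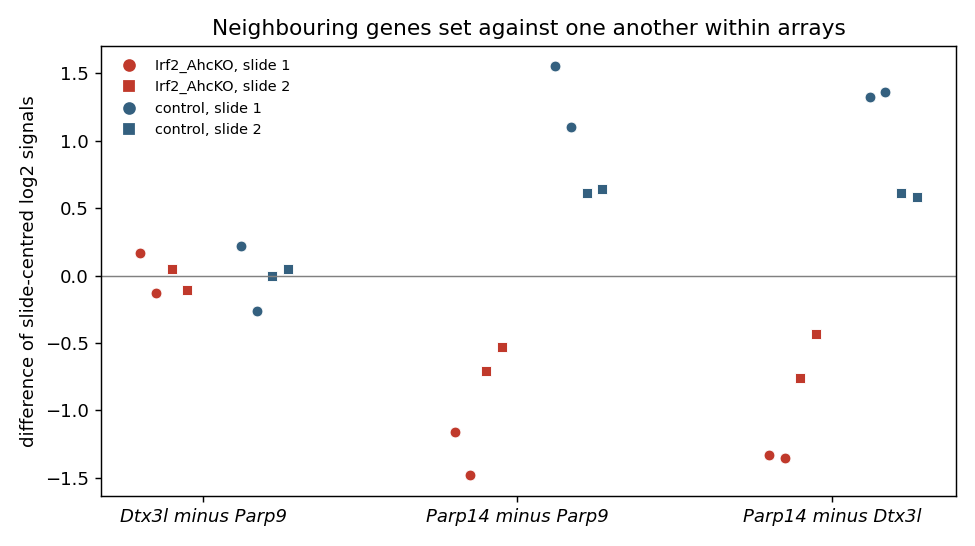
Each point is the difference between 2 neighbouring genes on 1 array after each gene was centred on its slide mean (log2, vertical axis), with Irf2_AhcKO left of control, circles for slide 1 and squares for slide 2. Dtx3l minus Parp9 scatters around 0 in both groups, while both gaps with Parp14 are below 0 on every Irf2_AhcKO array and above 0 on every control array.

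Beyond the cluster, of the 3 nearest protein-coding genes on either side, 5 of 6 were measured, none passed the threshold and none had groups apart. Next to Parp14, Hspbap1 had a log2 difference of 0.15 (SE 0.08), Slc49a4, a transporter of the SLC49 family, -0.04 (SE 0.19) and Sema5b, a semaphorin, -0.54 (SE 0.15). On the Parp9 side, the nuclear import factor Kpna1 had -0.20 (SE 0.13) and Fam162a -0.05 (SE 0.09), while Wdr5b was too dim to be kept.

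**Figure D3:**
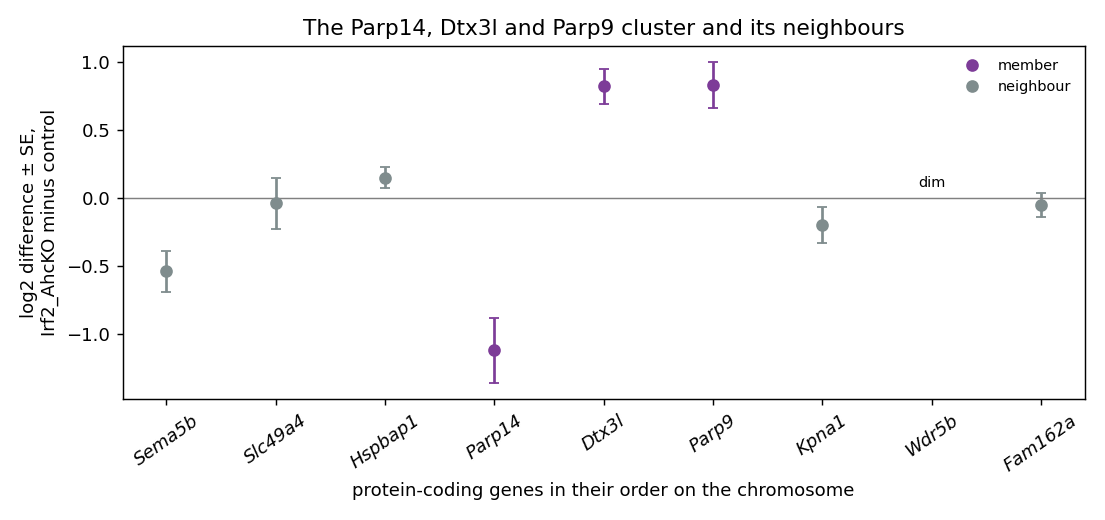
Log2 difference between Irf2_AhcKO and control arrays with its SE (vertical axis) for the protein-coding genes around the chromosome 16 cluster in their order in the gene table (horizontal axis, not to distance). Dtx3l and Parp9 stand at 0.82 and 0.83, Parp14 beside them at -1.12, and the measured neighbours between -0.54 and 0.15; Wdr5b was too dim to be kept.

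Parp10 lies on chromosome 15 and Parp12 on chromosome 6. The 5 measured neighbours of Parp10 had differences between -0.32 (Grina) and 0.09 (BC024139), with Eppk1 at 0.03, Spatc1 at 0.02 and Plec, the linker protein plectin, at -0.04. Of the 5 measured neighbours of Parp12, Rab19, a small GTPase, was lower in Irf2_AhcKO by a log2 difference of -0.96 (SE 0.15) with groups apart, and did not pass (limma adjusted p = 0.11). The others were Clec2l at 0.35, Kdm7a, a histone demethylase, at 0.10, the kinase gene Hipk2 at 0.09 and Slc37a3 at -0.20. Smpd5 and Tbxas1 were too dim to be kept.

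Of the other PARP enzymes, 10 of 12 were measured, none passed in either direction and none had groups apart. Their median log2 difference was 0.02, where that of all features was 0.00, with 8 positive and 2 negative. The highest were Parp11 at 0.66 (SE 0.60), well above background on 4 of 4 Irf2_AhcKO and 3 of 4 control arrays, and the vault-associated Parp4 at 0.43 (SE 0.15). The lowest were Parp1, the main DNA damage-activated enzyme, at -0.25 (SE 0.14) and Tiparp, a target of the aryl hydrocarbon receptor, at -0.14 (SE 0.14). Parp11 moved with single arrays, to -0.01 without control replicate 2, 0.97 without control replicate 4, 1.58 on slide 1 and -0.26 on slide 2. Parp9 and Dtx3l lay above Parp11 over all arrays and below it on slide 1, where they had 1.00 and 1.03.

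**Figure D4:**
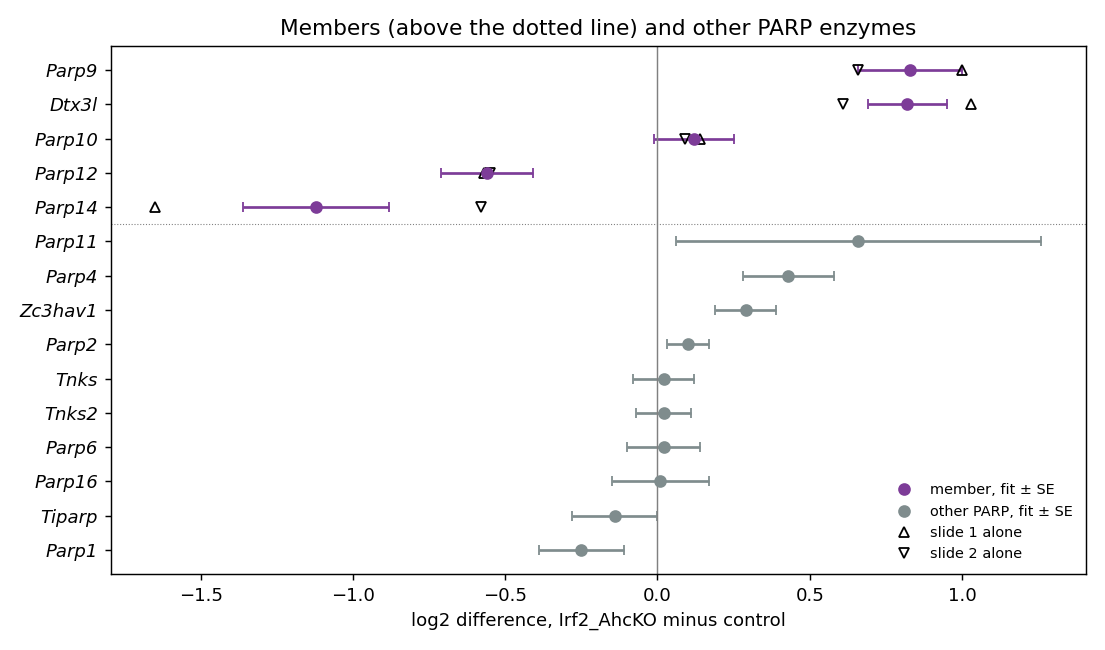
Log2 difference between Irf2_AhcKO and control arrays (horizontal axis, point and SE from the fit) for the 5 members above the dotted line and for 10 other PARP enzymes below it, with open triangles for the members' difference on slide 1 (pointing up) and slide 2 (pointing down). Parp9 and Dtx3l lie right and Parp12 and Parp14 left of the other points, the error bar of Parp11 at 0.66 reaches past Parp9 and Dtx3l, and among the members the slides differ most for Parp14.

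The enzymes and readers that remove or bind ADP-ribose were measured for 12 of 12 genes, with no call in either direction and a median of -0.12. Chd1l, a remodeller recruited by ADP-ribose, at 0.20 and the macrodomain histone Macroh2a1 at 0.04 were highest, and Adprhl1 at -0.68 and the hydrolase Macrod2 at -0.44 lowest. Adprhl1 was well above background on 2 of 4 Irf2_AhcKO and 3 of 4 control arrays. In the Deltex family 3 of 4 genes were measured and none passed, with Dtx3 at 0.68, Dtx4 at 0.17 and Dtx2 at -0.26 (list median 0.17). Dtx3 was well above background on 3 of 4 Irf2_AhcKO and 2 of 4 control arrays. Among genes that make or use NAD+, the substrate of the PARPs, 12 of 16 were measured and none passed (median -0.06). Nmrk1, a nicotinamide riboside kinase, had 0.40, the deacetylase Sirt1 0.01, the NAD+ hydrolase Cd38 -0.18 and the methyltransferase Nnmt -0.31. Of the DNA damage partners, 9 of 10 were measured and none passed (median -0.01), with Mdc1 at 0.17, Bard1 at 0.15, the histone H2ax at -0.12 and Brca1 at -0.19.

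Among STAT and interferon regulators linked to the members, 24 of 25 were measured, with a list median of 0.08. None passed as higher and 1 passed as lower, where 0.0551% and 0.0433% of all features did so. Groups were apart in 1 gene that was higher and 1 that was lower, where 1.74% and 2.11% of all features were so. Nmi, which encodes a STAT-binding protein, fell in Irf2_AhcKO, with a log2 difference of -1.09 (SE 0.09, adjusted p = 0.0135 by limma). With the replicate block Nmi had an adjusted p of 0.0708 (limma), and it missed the threshold under 10 of 18 alternatives, among them leaving out control replicate 1 or 2 or any 1 Irf2_AhcKO array. Irf8, a factor of interferon gamma responses, stood at 0.60 (SE 0.13, adjusted p = 0.202 by limma). The lowest after Nmi was the type I interferon receptor chain Ifnar1 at -0.65 (SE 0.27, adjusted p = 0.423). Stat6, the known partner of PARP14 in mouse lymphocytes, stood at -0.05 (SE 0.12), and was singled out for that role after its value was seen.

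The slide was not used to choose the members, so their difference between slides was tested over all features, of which 35.5% passed. Of the 5 members only Parp10 passed, with means of 0.38 on slide 2 and 0.79 on slide 1 (log2 difference -0.40, SE 0.13, limma adjusted p = 0.0494), lower on slide 2. That fit takes the 8 arrays as independent, although replicate numbers may pair them, and each slide would then hold 2 whole pairs. With replicate number as a random block, added after seeing the data, the adjusted p of Parp10 was 0.0667 by limma, and 32.5% of features passed. The adjusted p of Parp10 lay between 0.0192 and 0.114 over 15 alternatives, and 11 of them ended the call. Parp12 had -0.34 (SE 0.15, adjusted p = 0.117), Parp14 -0.33 (SE 0.24, adjusted p = 0.313), Parp9 -0.17 (SE 0.17, adjusted p = 0.473) and Dtx3l 0.12 (SE 0.13, adjusted p = 0.514). Whether the difference between groups was unequal on the slides was tested as an interaction, which no feature passed (limma, 1091 of 25398 features had an unadjusted p below 0.05, 0% passed adjusted). Parp14 had the widest such value among the members, 1.07 (SE 0.28, limma unadjusted p = 0.0083, adjusted p = 0.999). For Dtx3l it was -0.42 (SE 0.22), for Parp9 -0.33 (SE 0.35), for Parp10 -0.05 (SE 0.28) and for Parp12 0.02 (SE 0.32), each with an adjusted p of 0.999. Both controls on slide 2 are those with Ah-Cre in their scanner file names. The interaction therefore cannot tell the slide from a genotype of these controls that is not settled.

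The genes most like each member over the 8 arrays were ranked by Pearson's r after removal of slide means. The arrays share slide and group, so r holds the group difference, and high values are easily found among 15108 named genes on 8 arrays. For Parp9 they were Gbp6 (r = 0.991) and Irgm1 (0.988), GTPases induced by interferon gamma, and Bex1 (0.984). For Dtx3l they were Olfr1121 (0.988), Adgrb1 (0.98) and Lypd6 (0.979). Parp14 was closest to Mylk (0.982), the myosin light chain kinase, Oaf (0.981) and the adaptor gene Grb14 (0.98). Among the genes closest to Parp12 were Kremen1 (0.982) and 9430069I07Rik (0.979). Parp10 was closest to Diras1 (0.989), the DNA polymerase Poll (0.978) and Grap2 (0.966). Gbp6 and Irgm1 had differences of 1.73 and 0.83 between groups, and Mylk one of -1.11 (limma adjusted p = 0.169, 0.122 and 0.23). The other similar genes named lay between -0.98 (Oaf) and 1.18 (Lypd6), and none of all these genes passed.

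Levels in sorted cell RNA cannot tell fewer cells of a type from less RNA per cell. Of 8 T and intraepithelial lymphocyte markers with a probe, 6 were measured, 5 of them had a positive difference, and none passed. The summed linear level of the 6, relative to the 75th percentile, was 8.47 to 9.56 on Irf2_AhcKO arrays and 5.83 to 8.48 on control arrays, with the highest on Irf2_AhcKO replicate 2. Cd3e was well above background on all 8 arrays, while Cd3g and Cd8a were too dim to be kept. The B and plasma cell sum, over 3 measured of 5 markers, was 0.339 to 0.399 in Irf2_AhcKO and 0.257 to 0.325 in controls, and Ms4a1 and Jchain were too dim. The myeloid sum, over 7 of 7 markers, was 128 to 280 in Irf2_AhcKO and 129 to 266 in controls. The tuft sum was 3.92 to 10.8 in Irf2_AhcKO and 3.17 to 4.73 in controls. A positive difference was seen in 3 of its 4 markers (median 0.72), and none passed. The enterocyte sum was 64.4 to 80.9 in Irf2_AhcKO and 89.5 to 1470 in controls, with 1470 on control replicate 4. Of the 7 enterocyte markers 0 had a positive difference, with a median of -0.88, and none passed. The epithelium, Paneth and goblet markers had medians of -0.15, 0.01 and -0.13, and none of them passed. Chga, the enteroendocrine marker chromogranin A, had levels of 0.21 to 0.71 in Irf2_AhcKO and -0.91 to 0.02 in controls, with groups apart. It is 1 gene from outside the marker lists, and 3.85% of all features had groups apart. The part of these cells in the members' differences was not tested.

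**Figure D5:**
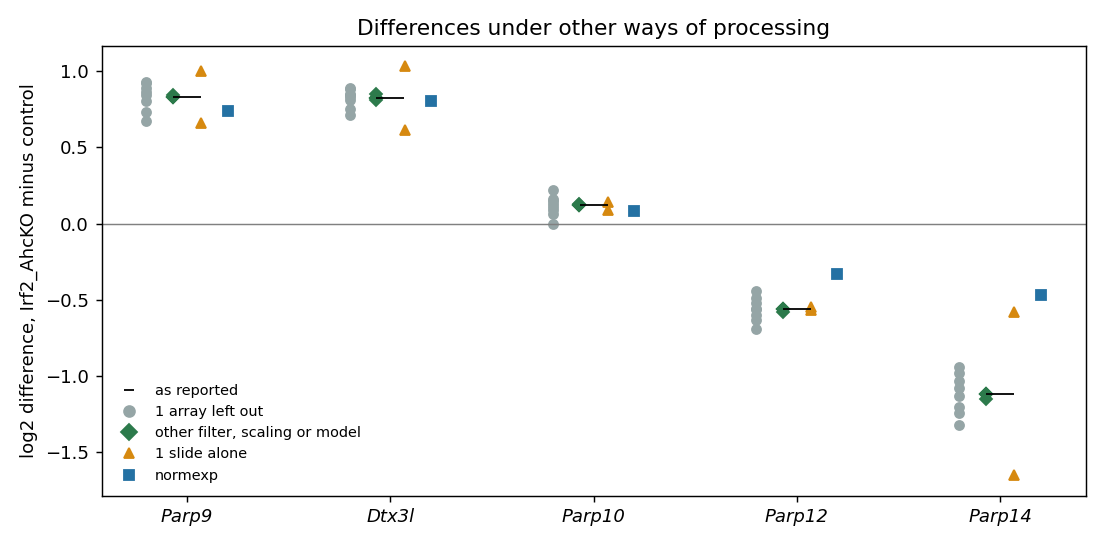
Log2 difference between Irf2_AhcKO and control arrays (vertical axis) for each member as reported (black line) and under the alternatives: each array left out (circles), another filter, scaling or model (diamonds), 1 slide alone (triangles) and normexp background correction (squares). Parp9 and Dtx3l stay between 0.61 and 1.03, Parp12 between -0.69 and -0.33, and Parp14 has the widest range, from -1.65 to -0.47.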

How the data were processed

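RNA of 8 samples (20 ng each, per the labels' protocols RNeasy columns, Ovation Pico amplification, Cy3 labelling) was measured on 8 Agilent 1-colour arrays. Per the file headers, the deposited intensity of each spot was made with Feature Extraction 11.5.1.1, which subtracts background and detrends. In the authors' deposited value table each array is this intensity multiplied by 1 constant (6.41 to 6.90), linear and uncentred, with column medians of 207 to 246. The origin of the constant is unknown. The flags (other values) for outliers and background are deposited in the same files.

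Levels are log2 processed intensity less the 75th percentile of the array. Outlier spots were dropped before replicate spots were averaged, but kept where all spots of a probe on an array were outliers. Of 55681 probes, 28331 had a symbol through their accession (RefSeq table, GRCm38.p6); the array grid is annotated on mm9, so no gene coordinates from the table are printed apart from the promoter windows. Probes well above background on at least 4 arrays were kept, the brightest per gene, leaving 25398 features. The comparison used lmFit and eBayes of limma 3.58.1 (R 4.3.3) with slide as a term, two-sided, with Benjamini-Hochberg adjustment. The code was tested on simulated data.

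The members and lists were chosen with earlier results of these data known. Named besides the members are Irf2, called genes and the 2 highest and 2 lowest of each list, the 3 nearest protein-coding genes on each side and the 3 most similar genes; 2 genes that this rule names are not reported here. Deviations from the group mean correlated between arrays of the same number (0.459, 0.491, 0.518 and 0.533 across features). Arrays of the same number also share a slide, so these values cannot tell pairs from the slide. In the fit with slide and a random block, the consensus correlation within a number was 0.0968. Whether the replicate numbers are pairs is thus not settled. If they are, each slide holds whole pairs. No 2 arrays were identical (highest r 0.989). Precision is limited by the number of arrays. The fit planned on mean spot signals used median spot signals for normexp, since the files hold those.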

Additional observations from a re-analysis of the deposited data

How the results depend on the processing

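Parp9, Dtx3l, Parp14 and Parp12 kept the sign of their difference between Irf2_AhcKO and control arrays with normexp, with quantile normalization, on each slide alone and with each array left out; Parp10 stood at 0.00 without Irf2_AhcKO replicate 2. The slide term, the replicate block, the filters and the authors' table could not move these differences, since the design is balanced and the member probes and scaled values are the same. The count of 25 features past the threshold was 133 with normexp, 46 with probes well above background on all 8 arrays, 7 without a filter and 0 with the replicate block, on slide 1 alone and on slide 2 alone; leaving out 1 array gave 0 to 25. It was 0 without control replicate 2 and without Irf2_AhcKO replicates 1 and 2, 1 without Irf2_AhcKO replicate 3, 3 without Irf2_AhcKO replicate 4, 6 without control replicate 3 and 11 without control replicate 1.

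The difference of Dtx3l moved to 1.03 on slide 1 and 0.61 on slide 2. That of Parp14 was -1.65 on slide 1, -0.58 on slide 2 and -0.47 with normexp, which shrinks dim signals by its offset. Parp14 minus Parp9 was -2.64, -1.25 and -1.22 under these 3 settings, and Parp14 minus Dtx3l -2.68, -1.19 and -1.27. With 1 array left out, Parp9 lay between 0.67 and 0.93, Dtx3l between 0.71 and 0.89, Parp14 between -1.32 and -0.94, Parp10 between 0.00 and 0.22 and Parp12 between -0.69 and -0.44. The slide difference of Parp10 was -0.40 and missed the threshold with quantile normalization, without a filter, with the mean of a gene's probes and with the replicate block as a random effect, and ranged from -0.51 to -0.29 with 1 array left out. That of Parp12 ranged from -0.47 to -0.22 there and passed at -0.47 without Irf2_AhcKO replicate 3.

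Among the STAT and interferon regulators 2 genes passed with normexp and 0 without a slide term, with the replicate block and on either slide alone. Leaving out 1 array gave 0 or 1, and 0 without control replicates 1 and 2 or any 1 of the Irf2_AhcKO arrays. Nmi kept its direction in all of these. The replicate block ended all 25 calls between groups, that of Nmi among them. The cause of the other shifts was not tested.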
